A study of Mus musculus with 35 samples.

Results

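Cxcr3 is a chemokine receptor carried mainly by activated T cells and natural killer cells, and Cxcl9, Cxcl10 and Cxcl11 are the chemokines that bind it. These 4 genes were followed in mouse tracheal transplants. They were chosen by name, and every probe set that the array annotation gave to exactly 1 of them was used. That gave 5 probe sets, of 22626 on the array that are not controls, for 4 of the 12393 genes measured. Cxcl9 was read by probe set 1418652_at, Cxcl10 by 1418930_at, Cxcl11 by 1419697_at and 1419698_at, and Cxcr3 by 1449925_at.

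Gene expression was measured on 35 Affymetrix arrays, 5 in each of 7 groups. The reference group was native trachea that had not been transplanted. Isografts were tracheas placed in recipients matched for the major histocompatibility complex (MHC) and taken at day 4, day 14 or day 25, and allografts were tracheas placed in mismatched recipients and taken at the same days. Strains, ages, sexes, the graft site, any drug treatment and whether an array stands for 1 animal or a pool are not given in the sources used here. The p-values therefore measure the spread between arrays, which may be technical. RNA came from whole tissue, in which donor and recipient cells are mixed, so fewer cells of a type and less RNA per cell cannot be told apart.

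Interferon-gamma, released by T cells and natural killer cells, induces Cxcl9 strongly, while Cxcl10 and Cxcl11 also answer to type I interferon. The chemokines are made by macrophages, dendritic cells, endothelium and airway epithelium, and they guide cells that carry Cxcr3 into inflamed tissue. In transplanted lung and airway this axis is known for its link with rejection and with the scarring of small airways. In RefSeq the 3 chemokine genes lie on chromosome 5 in the order Cxcl9, Cxcl10 and Cxcl11, with Art3 listed between the first and the second by start position, and Cxcr3 lies on chromosome X. Cxcl9, Cxcl10 and Cxcr3 are annotated there as protein coding, and Cxcl11 as a transcribed pseudogene in the mouse reference build GRCm38.p6.

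The 250 bases before the RefSeq start of Cxcl9 and of Cxcl10 are shown because Cxcl9 and Cxcl10 showed the largest allograft-isograft differences of the members. Both are read 5′ to 3′ on the strand of the gene, which is the minus strand of GRCm38.p6, at chr5:92328080-92328329 for Cxcl9 and chr5:92348890-92349139 for Cxcl10. Capitals mark matches to the motifs searched.
Cxcl9: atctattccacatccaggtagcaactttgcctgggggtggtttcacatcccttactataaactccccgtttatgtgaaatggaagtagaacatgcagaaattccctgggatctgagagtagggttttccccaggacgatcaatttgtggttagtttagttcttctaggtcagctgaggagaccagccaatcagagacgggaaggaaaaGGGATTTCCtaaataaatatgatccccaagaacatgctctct
Cxcl10: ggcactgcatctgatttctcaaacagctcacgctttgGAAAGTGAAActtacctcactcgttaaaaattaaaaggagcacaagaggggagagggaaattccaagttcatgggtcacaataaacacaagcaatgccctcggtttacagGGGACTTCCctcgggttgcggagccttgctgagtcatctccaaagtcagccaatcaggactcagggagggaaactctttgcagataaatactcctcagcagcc
The motifs searched, on both strands, were an interferon-stimulated response element (GAAA, any 2 bases, then GAAA again), a gamma-activated sequence (TTCNNNGAA), a kappaB site (GGGANTTCC) and a T-box site (TCACACCT). The Cxcl9 window held a kappaB match from 42 to 34 bases before the start. The Cxcl10 window held a kappaB match from 103 to 95 bases before the start and an interferon-stimulated response element match from 213 to 204 bases before it. No match to any of them lay in the same window of Cxcr3 (chrX:101734148-101734397, minus strand), and the Cxcl11 window was not searched here. Of 32851 windows of this length in RefSeq, 1.43% held the kappaB letters, 2.98% the interferon-stimulated response element, 7.02% the gamma-activated sequence and 1.12% the T-box letters. A match describes letters only and is not a measured binding site.

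Values are log2 intensities on which the authors had run GCRMA, a method that subtracts a modelled background and combines the probes of a probe set, so folds against values of 3 to 4 depend on that background model. A probe set was tested when it reached log2 5 in at least 5 arrays, which 13678 probe sets did. A call means a Benjamini-Hochberg adjusted p under 0.05 in limma. All 5 member probe sets were tested. Cxcr3 and Cxcl11 probe set 1419697_at reached log2 5 in 7 arrays each, every one of them an allograft, so their presence among the tested probe sets itself depended on the allografts. For Cxcr3 these were 3 allografts of day 14 and 4 of day 25. For 1419697_at they were 3 of day 4, 3 of day 14 and 1 of day 25. Array medians lay between 5.07 and 5.30. Native replicate 5 and day 25 isograft replicate 5 had the lowest correlations with their own group and the highest summed levels of 8 skin markers of all arrays, at 13.40 and 12.63 on the log2 scale. Airway epithelium markers, which define the labelled tissue, had a summed level of 15.06 to 15.48 in native trachea.

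Cxcl9 was low in native trachea, rose in isografts between day 4 and day 14, and stood far above both in every allograft array from day 4 on. The 5 native arrays read 3.35, 3.50, 4.21, 3.50 and 3.70. Isografts read 3.02, 3.87, 4.95, 3.73 and 3.58 at day 4, then 6.85, 6.33, 6.36, 4.82 and 5.35 at day 14, and 6.50, 4.98, 4.66, 5.89 and 4.14 at day 25. The day 4 isografts spanned the native range, while every day 14 isograft lay above every native array. The lowest day 25 isograft fell within the native range. Allografts read 8.84, 9.19, 10.28, 7.78 and 8.57 at day 4, then 10.76, 11.38, 10.97, 11.20 and 11.13 at day 14, and 11.96, 10.98, 11.47, 11.72 and 11.06 at day 25. The lowest allograft array of any day was above the highest isograft array of any day.

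Cxcl9 was 5.10 ± 0.41 (difference in log2 ± SE, n = 5 per group) higher in allografts than in isografts at day 4, which is 34.3-fold (adjusted p = 3.42e-10). At that day only 0.600% of the tested probe sets were called, and the Cxcl9 difference held rank 4 by size among all 13678. The difference was 5.15 at day 14 (adjusted p = 4.31e-11) and 6.20 at day 25 (adjusted p = 2.38e-13, 73.8-fold). By then 18.4% of the probe sets were called at day 14 and 14.9% at day 25, and Cxcl9 held rank 31 at both days. The rank by size fell although the difference did not. Among probe sets higher in allografts Cxcl9 held rank 3 at day 4, 5 at day 14 and 6 at day 25. At days 14 and 25 most probe sets ranked above it by size were thus lower in allografts.

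**Figure D1:**
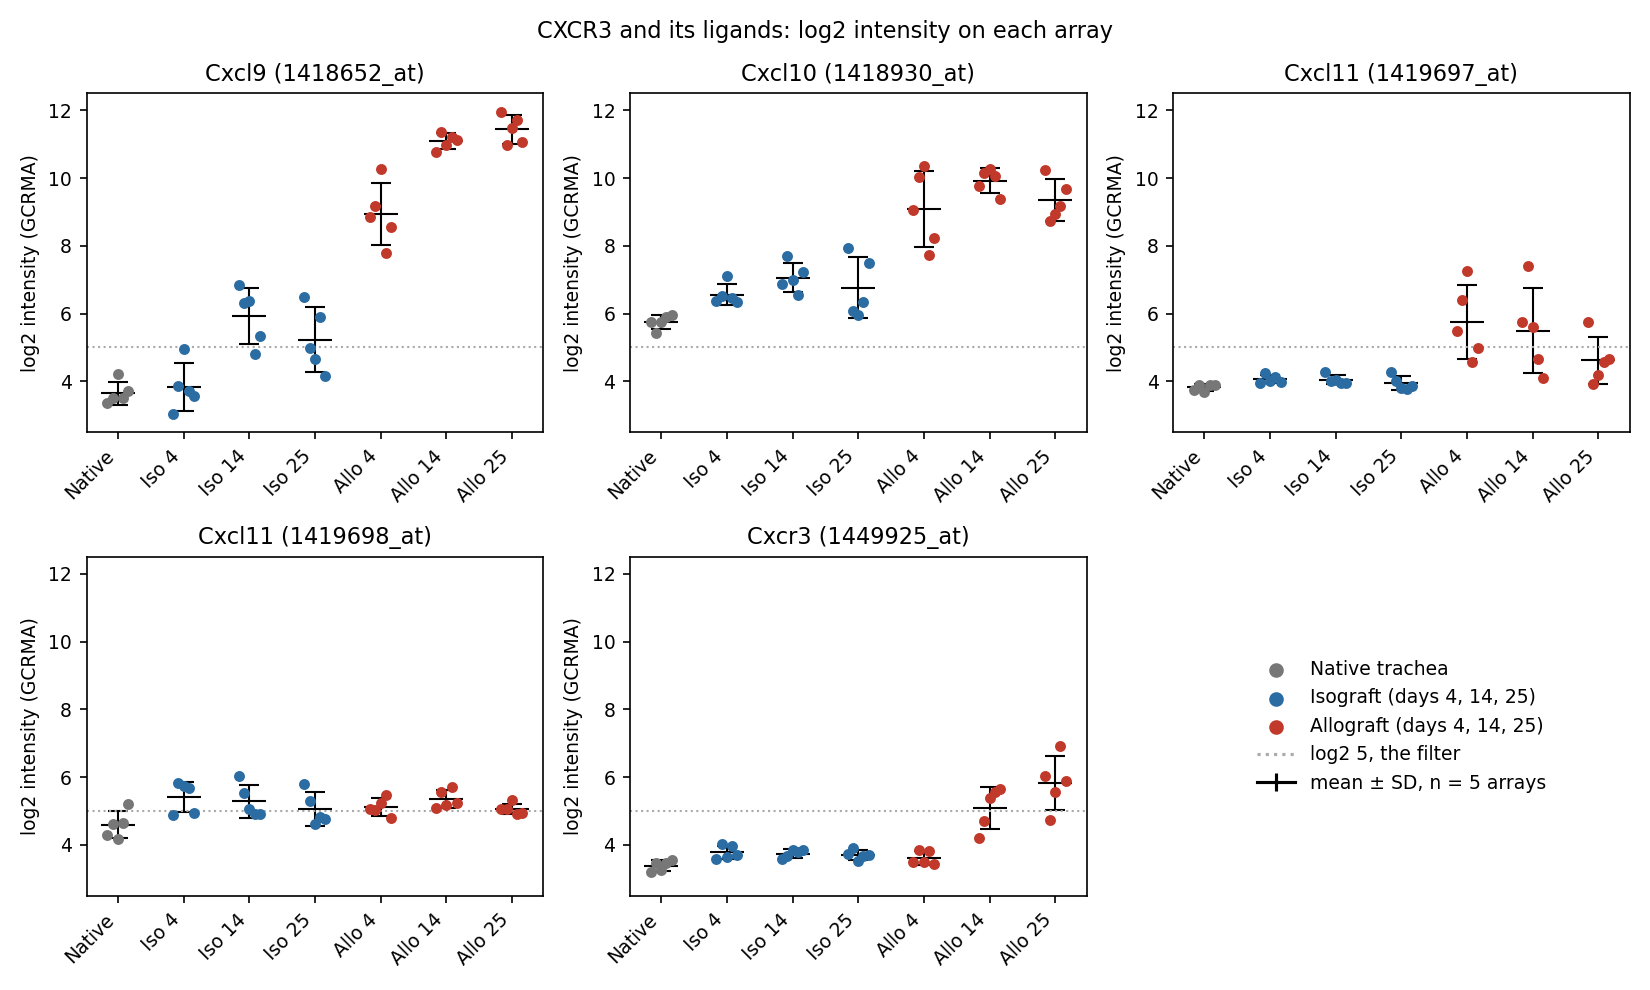
Log2 intensity (vertical axes) of the 5 probe sets of Cxcl9, Cxcl10, Cxcl11 and Cxcr3 on each of 35 arrays, by group (horizontal axes), with black bars for mean ± SD of 5 arrays and a dotted line at log2 5, the filter. Cxcl9 and Cxcl10 are high in all allografts from day 4, Cxcr3 stays between 3.44 and 3.84 in day 4 allografts and rises to at least 4.21 at day 14, and the 2 Cxcl11 probe sets differ from each other.

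Against native trachea, Cxcl9 differed by 0.18 in day 4 isografts (adjusted p = 0.756), where 44.3% of probe sets were called. It was 2.29 higher in day 14 isografts (adjusted p = 0.000175) and 1.58 higher in day 25 isografts (adjusted p = 0.00904), with 28.8% and 16.1% called. Without the 2 arrays that stood apart the day 25 difference was 1.87. Allografts were above native trachea by 5.28, 7.44 and 7.79 at days 4, 14 and 25, where 44.8%, 46.1% and 36.0% of probe sets were called. These 6 comparisons share the same native arrays. Cxcl9 therefore exceeded native levels in matched grafts too, from day 14, but by far less than in mismatched ones.

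Over time, Cxcl9 rose from day 4 to day 14 by 2.16 in allografts (adjusted p = 0.000665, 7.99% of probe sets called) and by 2.11 in isografts (adjusted p = 0.000342, 22.0% called). The change of the allograft-isograft difference from day 4 to day 14 was 0.05, with a 95% interval of -1.14 to 1.23 (adjusted p = 0.983). From day 14 to day 25 it changed by 0.35 in allografts (adjusted p = 0.841, 3.08% called) and by -0.71 in isografts, where 0% of probe sets were called in limma and 882 had an unadjusted p under 0.05. The allograft-isograft difference changed by 1.06 over that step, with a 95% interval of -0.13 to 2.25 (adjusted p = 0.661).

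Cxcl10 was also higher in allografts than in isografts at every day, and it stood above native trachea in day 14 isografts. The native arrays read 5.75, 5.42, 5.76, 5.90 and 5.97. Isografts read 6.38, 6.53, 7.10, 6.46 and 6.33 at day 4, then 6.86, 7.70, 6.99, 6.55 and 7.22 at day 14, and 7.95, 6.09, 5.95, 6.33 and 7.49 at day 25. Every day 4 and day 14 isograft lay above every native array, and the day 25 isografts reached down into the native range. Allografts read 9.06, 10.03, 10.35, 7.74 and 8.25 at day 4, then 9.77, 10.16, 10.28, 10.06 and 9.38 at day 14, and 10.25, 8.73, 8.93, 9.17 and 9.67 at day 25. At each day the allografts and isografts did not overlap, although the lowest day 4 allograft was below the highest day 25 isograft.

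Cxcl10 was 2.53 ± 0.39 higher in allografts than in isografts at day 4 (n = 5 per group, 5.76-fold, adjusted p = 0.000117 in limma), rank 16 by size. The difference was 2.87 at day 14 (adjusted p = 1.24e-06) and 2.59 at day 25 (adjusted p = 6.0e-06). It did not change detectably between days, by 0.34 from day 4 to day 14 (95% interval -0.78 to 1.46) and by -0.28 from day 14 to day 25 (95% interval -1.40 to 0.84). Within allografts it differed by 0.85 from day 4 to day 14 (adjusted p = 0.199) and by -0.58 from day 14 to day 25 (adjusted p = 0.595), and in isografts by 0.50 and -0.30.

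Against native trachea, Cxcl10 was 1.30 higher in day 14 isografts (adjusted p = 0.0131). In isografts of the other days the difference was 0.80 at day 4 (adjusted p = 0.0939) and 1.00 at day 25 (adjusted p = 0.0739), neither of which was called. The day 4 value was called when only those 2 groups were fitted (adjusted p = 0.00481) or arrays were weighted by quality (adjusted p = 0.0266), and the day 25 value without day 25 isograft replicate 3 (1.21, adjusted p = 0.0425). In allografts Cxcl10 stood 3.33, 4.17 and 3.59 above native trachea at days 4, 14 and 25, all called.

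Cxcl11, the chemokine annotated as a pseudogene in the reference build, gave different readings from its 2 probe sets. Probe set 1419697_at read 3.69 to 3.90 in native trachea and 3.77 to 4.28 in all isografts, and was not called against native trachea in isografts of any day. Its day 4 and day 14 isografts still lay above every native array, with lowest values of 3.951 and 3.941. Allografts read 5.50, 6.41, 7.27, 4.58 and 4.97 at day 4, then 5.75, 7.39, 5.61, 4.66 and 4.10 at day 14, and 5.74, 3.92, 4.20, 4.57 and 4.67 at day 25. All day 4 allografts lay above all isografts, but at days 14 and 25 the lowest allografts fell among the isografts. The allograft-isograft difference was 1.68 ± 0.42 at day 4 (n = 5 per group), which missed the threshold in limma (adjusted p = 0.0508), 1.46 at day 14 (adjusted p = 0.0115) and 0.68 at day 25 (adjusted p = 0.336).

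The day 4 and day 14 calls of 1419697_at turned on single arrays and settings. At day 4 the difference was called in 5 of 19 alternatives, among them the fit with replicate number as a block (adjusted p = 0.0415), and it was 1.30 without allograft replicate 3. At day 14 it was called in 17 of 19 alternatives and fell to 0.985 without allograft replicate 2 (adjusted p = 0.0677). Against native trachea it was 1.93 higher in day 4 allografts (adjusted p = 0.000366), 1.68 higher in day 14 allografts (adjusted p = 0.00146) and 0.80 higher in day 25 allografts (adjusted p = 0.131).

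The other Cxcl11 probe set, 1419698_at, did not separate allografts from isografts. It read 4.19 to 5.20 in native trachea, 4.61 to 6.03 in isografts and 4.80 to 5.70 in allografts, and allografts and isografts overlapped at every day. Its allograft-isograft difference was -0.30 at day 4 (95% interval -0.78 to 0.19), 0.07 at day 14 (95% interval -0.42 to 0.55) and -0.004 at day 25 (95% interval -0.49 to 0.48). It was above native trachea by 0.83 in day 4 isografts (adjusted p = 0.00572), 0.70 in day 14 isografts (adjusted p = 0.0274) and 0.76 in day 14 allografts (adjusted p = 0.00947). The day 14 isograft call was lost with only the compared groups fitted (adjusted p = 0.0809) and without native replicate 1 (0.0783), native replicate 3 (0.0786), day 14 isograft replicate 1 (0.108) or day 14 isograft replicate 2 (0.0695). Such calls were common, since 28.8% to 46.1% of all probe sets were called in these 3 comparisons. Over the 35 arrays the 2 probe sets of the gene correlated at r = 0.208.

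For Cxcr3, the receptor, no rise in allografts over isografts was detected at day 4, when Cxcl9 and Cxcl10 were higher. The native arrays read 3.21, 3.47, 3.25, 3.46 and 3.56, and day 4 allografts read 3.49, 3.84, 3.48, 3.83 and 3.44. All isografts lay between 3.52 and 4.02, and the day 4 allografts overlapped them. All these values lay below the filter, where a small rise could go unseen. Allografts then read 4.21, 4.70, 5.38, 5.56 and 5.64 at day 14 and 6.03, 4.72, 5.56, 6.91 and 5.89 at day 25. Every day 14 and day 25 allograft was above every isograft and every native array.

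The allograft-isograft difference of Cxcr3 was -0.16 ± 0.25 at day 4 (n = 5 per group, 95% interval -0.67 to 0.35, adjusted p = 1 in limma), 1.35 at day 14 (adjusted p = 0.000154, 2.56-fold) and 2.12 at day 25 (adjusted p = 9.18e-08, 4.33-fold). Its change from day 4 to day 14 was itself called, at 1.52 ± 0.36 (adjusted p = 0.00637), in a test in which 6.38% of probe sets were called. It was called in all 29 alternatives run for it, the fit without a filter among them, between 1.38 and 1.74. Cxcr3 passed the main filter only through day 14 and day 25 allografts, the groups in which it was high. A filter at log2 7 left it out. From day 14 to day 25 the difference changed by 0.76 (adjusted p = 0.519), where 1.07% of probe sets were called. Of the 5 member probe sets, Cxcr3 was the single one with a called change of the allograft-isograft difference between days.

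Within allografts Cxcr3 rose by 1.48 from day 4 to day 14 (adjusted p = 0.000160). The step from day 14 to day 25 was 0.72 (adjusted p = 0.141), and without day 25 allograft replicate 2 it was 0.999 and called (adjusted p = 0.00838). In isografts it differed by -0.03 and -0.04 over the same steps. Against native trachea it was 1.71 higher in day 14 allografts (adjusted p = 1.66e-06) and 2.43 higher in day 25 allografts (adjusted p = 2.15e-09). The isograft differences from native were 0.39, 0.35 and 0.32 at days 4, 14 and 25 and the day 4 allograft difference was 0.23, none of them called. The day 4 and day 14 isografts still lay above every native array, if narrowly. Their lowest values were 3.571 and 3.575, against a highest native value of 3.557.

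**Figure D2:**
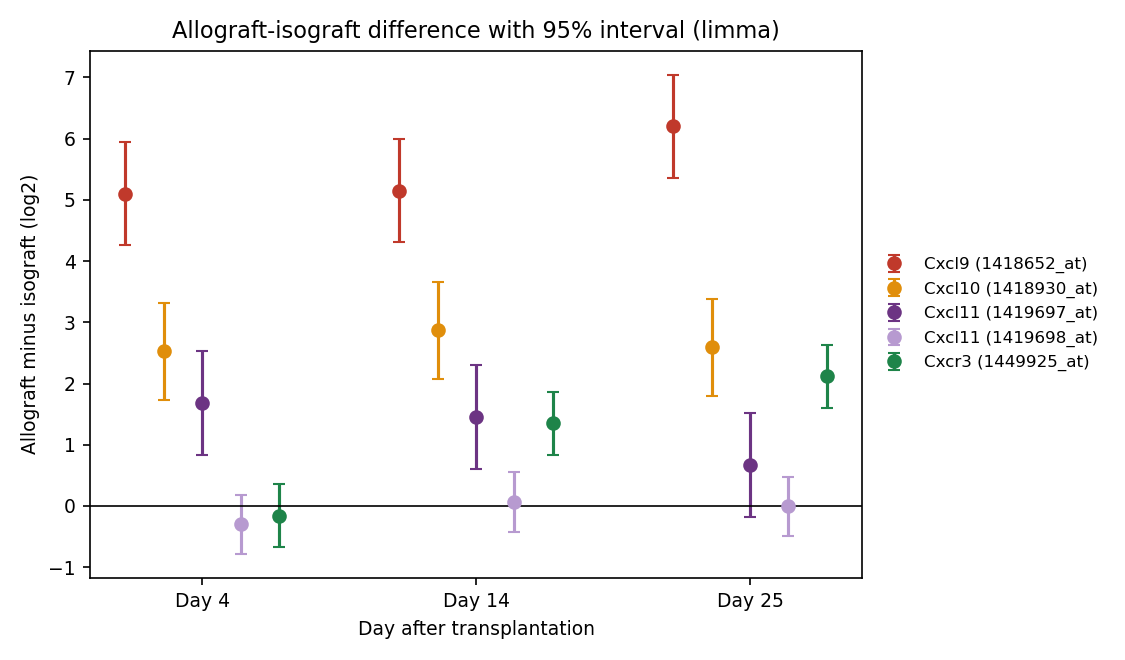
Difference between allografts and isografts in log2 (vertical axis) at days 4, 14 and 25 (horizontal axis) for the 5 probe sets, as points with 95% intervals from limma, 5 arrays per group. Cxcl9 lies between 5.10 and 6.20 and Cxcl10 between 2.53 and 2.87 at all 3 days, while Cxcr3 goes from -0.16 to 2.12.

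The orders of the 7 groups by mean level differed between the chemokines and the receptor. For Cxcl9 and Cxcl10 the order ran from native trachea through isografts of days 4, 25 and 14 to the allografts. Neighbours in the Cxcl9 order did not overlap between day 14 isografts and day 4 allografts (a step of 2.99) and between day 4 and day 14 allografts (2.16), and overlapped elsewhere. In the Cxcl10 order the steps without overlap were from native trachea to day 4 isografts (0.80) and from day 14 isografts to day 4 allografts (2.02). The Cxcr3 order had 1 step without overlap, of 1.32, between day 4 isografts and day 14 allografts. Neighbours in the orders of both Cxcl11 probe sets overlapped throughout.

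Genes whose level followed each member most closely were found by Pearson r over all 35 arrays among 8302 other genes. These r values reflect the group differences and describe likeness only. The companion genes were picked on the same arrays, so their differences and calls follow from that choice and are no separate support. For Cxcl9 they were Gbp2 (r = 0.984), Igtp (0.973), Slamf8 (0.972), Irgm2 (0.954) and Gbp7 (0.950). Slamf8 encodes a surface receptor of myeloid cells. Gbp2 and Gbp7 encode guanylate-binding proteins, and Igtp and Irgm2 encode immunity-related GTPases, both families induced by interferon-gamma. The Gbp2 probe set is of the x_at kind, which can bind related transcripts. For Cxcl10 the genes were Ifi47 (0.940), Gbp7, Gbp2, Irgm2 and Igtp, the last 3 at 0.936. Cxcl9 and Cxcl10 correlated with each other at 0.932.

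The Cxcl11 probe sets had different companions. Those of 1419697_at were Gbp2b (0.793), Oasl2 (0.744), Irgm1 (0.718), Gbp3 (0.700) and Gbp2 (0.688), again interferon-induced genes. Those of 1419698_at were Obi1 (0.953), Zfp982 (0.941), Zfp772 (0.939), Tpbpa (0.937) and Neu3 (0.937), none of which was called between allografts and isografts at any day. Obi1 encodes a ubiquitin ligase of DNA replication, Neu3 a sialidase and Tpbpa a trophoblast protein.

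By r, the companions of Cxcr3 were genes of cytotoxic and activated lymphocytes. They were Cst7 (0.941), encoding cystatin F, Ctsw (0.911), encoding cathepsin W, Klrc1 (0.905), an NKG2 receptor, Tnfrsf18 (0.901), encoding GITR, and Cxcr6 (0.877), another chemokine receptor of T cells. In allografts against isografts Cst7 differed by 0.27, 1.84 and 2.03 and Cxcr6 by -0.12, 1.33 and 2.32 at days 4, 14 and 25, with the day 14 and day 25 values called. Gbp2, the gene most like Cxcl9, differed by 2.75, 3.18 and 2.98 at the same days, all called. Each of these genes was picked for following its member, so a like course over the days follows from the choice. With Spearman rho in place of r, 3 of the 5 genes were shared for Cxcl9, Cxcl10, Cxcr3 and 1419698_at, and none for 1419697_at. By rho the gene most like Cxcr3 was Ighg3, an immunoglobulin chain gene.

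Whether single arrays that were high for one member were also high for another was tested on deviations from the group mean, with 6 pairs of genes and values permuted within groups. Cxcl9 and Cxcl10 deviated together with Pearson r = 0.558 (permutation p = 0.00916, adjusted p = 0.0550) and Spearman rho = 0.469 (permutation p = 0.0201, adjusted p = 0.0607) over 35 arrays. Without the 2 arrays farthest from the median for Cxcl9, r was 0.390 (permutation p = 0.0523), so the relation leaned on day 4 allograft replicate 3 and day 25 isograft replicate 1. Without the 2 arrays that stood apart from their groups it was 0.700 (adjusted permutation p = 0.00042). Cxcl9 and Cxcl11, read by 1419698_at, gave r = 0.465 (adjusted permutation p = 0.0633) and rho = 0.447 (adjusted permutation p = 0.0607). Read by 1419697_at, a choice made after the 2 probe sets were seen to differ, Cxcl11 deviated with Cxcl10 at r = 0.640 (adjusted permutation p = 0.00084) and with Cxcl9 at r = 0.439 (adjusted permutation p = 0.00222).

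Among day 4 allografts 3 of the 4 chemokine probe sets had the same highest and lowest array. Replicate 3 was the highest of the 5 for Cxcl9, Cxcl10 and Cxcl11 probe set 1419697_at, by 1.35, 1.27 and 1.52 above the group mean, and replicate 4 was the lowest for each, by -1.15, -1.34 and -1.17. Cxcl11 probe set 1419698_at differed, with replicate 4 as its highest array (0.37) and replicate 5 as its lowest (-0.32). Cxcr3 deviated by -0.13 in replicate 3 and 0.21 in replicate 4. It read 3.44 to 3.84 in the day 4 allografts, below the filter, where little shared variation could show. Over the 35 arrays the deviations of Cxcr3 correlated with those of Cxcl9 at r = 0.0798, of Cxcl10 at 0.0847 and of Cxcl11, read by 1419698_at, at 0.107, none with an adjusted permutation p under 0.05. Cxcr3 reached log2 5 in only 7 of these arrays, so low r values cannot show that it varied independently of the chemokines. Without removing the group means, Cxcr3 correlated with Cxcl9 at r = 0.759 and with Cxcl10 at 0.654, which reflects the group differences.

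**Figure D3:**
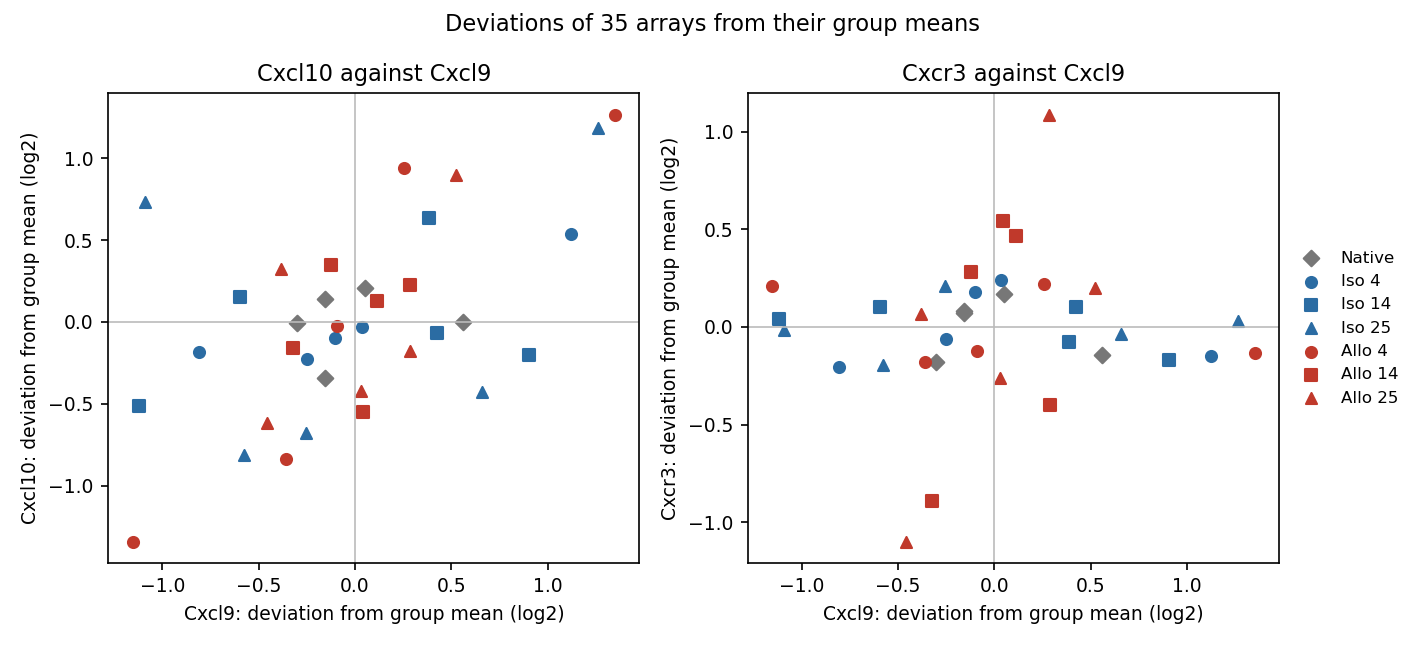
Deviation of each of 35 arrays from its group mean, in log2, for Cxcl10 (left, vertical axis) and Cxcr3 (right, vertical axis) against Cxcl9 (horizontal axes), with symbols for the 7 groups. Cxcl10 and Cxcl9 lean along the diagonal (r = 0.558), with day 4 allograft replicates 3 and 4 at the ends, and Cxcr3 and Cxcl9 show no such line (r = 0.0798).

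Ifng encodes interferon-gamma, the main inducer of Cxcl9. It stayed below the filter, so its values come from limma without a filter, over 22626 probe sets. Its 5 arrays ran from 2.98 to 3.53 in day 4 allografts, with a median of 3.17, against 2.86 to 3.25 and a median of 3.16 in day 4 isografts. In allografts it ran from 4.42 to 5.74 at day 14 (median 5.34) and from 3.13 to 4.55 at day 25 (median 3.71). The allograft-isograft difference was 0.10 at day 4 (adjusted p = 0.929), 2.07 at day 14 (adjusted p = 2.78e-08) and 0.85 at day 25 (adjusted p = 0.00778). An exact two-sided permutation test of the day 14 difference gave p = 0.00794, the smallest that 5 against 5 arrays can give. No Ifng difference was detected at day 4, when Cxcl9 and Cxcl10 were higher in allografts. All Ifng values of that day lay below the filter, where a small rise could go unseen. The part of Ifng in the chemokine differences was not tested. Within allografts Ifng fell by 1.40 from day 14 to day 25 (adjusted p = 0.000172).

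Other genes of interferon-gamma signalling were tested for 6 of 9 listed. None was called in allografts against isografts at day 4, and 3 rose at day 14 and 3 at day 25, with median differences over the 6 of 0.26, 0.78 and 0.64 against 0.01, 0.05 and 0.01 over all tested probe sets. The shares of all probe sets called at these days were 0.600%, 18.4% and 14.9%. Irf1, a transcription factor induced by interferon-gamma, was 0.73 higher at day 4 (adjusted p = 0.0534), 1.22 at day 14 (adjusted p = 5.83e-06) and 1.14 at day 25 (adjusted p = 1.66e-05). Irf8, a factor of myeloid cells, differed by 0.21, 1.21 and 1.16, called at days 14 and 25.

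Of 7 tested genes of type I interferon signalling, 0 were called at days 4 and 14 and 1 rose at day 25, with median differences of 0.09, 0.37 and 0.36. The day 25 count is near the 14.9% of all probe sets called at that day, and 0.600% and 18.4% were called at days 4 and 14. Of 6 tested genes of NF-kappaB and TNF signalling, 0 were called at day 4, 3 rose at day 14 and 0 were called at day 25. Among them Nfkb2, a subunit of NF-kappaB, was 1.01 higher at day 14 (adjusted p = 0.0219) and Tnfrsf1b, a TNF receptor, 0.89 higher (adjusted p = 0.0381).

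Genes that induce Cxcr3 or carry its signal were tested for 6 of 9 listed, of which 0, 2 and 1 rose at days 4, 14 and 25, beside 0.600%, 18.4% and 14.9% of all probe sets called. With each gene averaged over its probe sets, 2 rose at day 25. Arrb2, encoding an arrestin that binds activated receptors, was 1.27 higher at day 14 (adjusted p = 0.000316), and Rac2, a GTPase of leukocyte migration, was 1.02 higher at day 14 (adjusted p = 0.0231) and 0.93 at day 25 (adjusted p = 0.0472). Tbx21 encodes T-bet, the factor that switches on Cxcr3 in T cells, and lay below the filter. In limma without a filter it differed between allografts and isografts by 0.06 at day 4 (adjusted p = 0.949), 0.55 at day 14 (adjusted p = 0.0483) and 1.06 at day 25 (adjusted p = 9.85e-05). The change of the Tbx21 difference between days did not pass the test, at 0.49 from day 4 to day 14 (adjusted p = 0.460) and 0.51 from day 14 to day 25 (adjusted p = 0.804).

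Of 5 genes whose products trim or bind the chemokines outside Cxcr3, 0 were called at day 4, 1 rose at day 14 and 1 fell at day 25, shares near the 18.4% and 14.9% of all probe sets called at those days. Dpp4, the peptidase that shortens all 3 chemokines, differed by 0.13, 0.34 and -0.27, none called. Ackr3, an atypical receptor that takes up Cxcl11, differed by -0.30 at day 4, 1.25 at day 14 (adjusted p = 0.00992) and -0.11 at day 25. Among 10 tested genes of other T cell homing chemokines and receptors, 0 were called at day 4, 7 rose at day 14, and 4 rose and 1 fell at day 25. Ccl5, a chemokine of T cells and monocytes, differed by 0.27 at day 4 (adjusted p = 1), 2.84 at day 14 (adjusted p = 9.47e-07) and 3.03 at day 25 (adjusted p = 2.32e-07). Ccr1, one of its receptors, differed by 0.28, 2.88 and -0.34, called at day 14. No tested gene of these 6 lists was called between allografts and isografts at day 4, where 0.600% of all probe sets were, so these counts are near the background. The interferon-induced genes named above as most like Cxcl9 and Cxcl10 are in none of these lists, and they were called at day 4. Igtp was 1.87 higher (adjusted p = 0.000117 in limma), Irgm2 1.88 (adjusted p = 0.000288) and Ifi47 1.94 (adjusted p = 3.3e-05). They had been picked for following the chemokines on these same arrays. With each gene averaged over its probe sets, 1 gene of interferon-gamma signalling was called there.

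Among markers of the cells that carry Cxcr3, 0 of 9 tested T cell markers were called in allografts against isografts at day 4, 6 rose at day 14 and 5 rose at day 25, beside 0.600%, 18.4% and 14.9% of all probe sets. Cd3e differed by -0.06, 1.39 and 0.96 and was called at days 14 and 25, and Cd3d by 0.27, 3.15 and 1.85, called at the same days. Cd8a differed by 0.02, 0.63 and 0.40, none called. The summed level of the 11 T cell markers on the array ran from 8.96 to 9.75 in day 4 allografts, 9.92 to 10.94 at day 14 and 9.84 to 10.68 at day 25, against 8.66 to 9.93 in isografts and 8.22 to 10.08 in native trachea. Thy1 reached 10.52 and no other of these markers exceeded 7.33, so the sum can depend largely on Thy1. Cd6 never exceeded 3.64. The part of these cells in the Cxcr3 difference was not tested.

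Natural killer and cytotoxic markers were higher in allografts in 1 of 6 tested genes at day 4 and in 6 of 6 at days 14 and 25. Of all tested probe sets, 0.600%, 18.4% and 14.9% were called at days 4, 14 and 25. The gene called at day 4 was Klrd1, encoding CD94, a receptor of natural killer and some CD8 T cells, which was 2.01 higher at day 4 (adjusted p = 1.44e-05), 3.05 at day 14 and 3.49 at day 25. Gzmb, encoding granzyme B, differed by 0.92 at day 4 (adjusted p = 0.246), 4.51 at day 14 (adjusted p = 1.84e-13) and 3.32 at day 25 (adjusted p = 6.10e-11). The summed level of 10 such markers was 8.38 to 9.24 in day 4 allografts, 9.55 to 10.74 at day 14 and 9.36 to 9.95 at day 25, against 7.81 to 8.50 in day 4 isografts. Ncr1, a marker specific to natural killer cells, never exceeded 3.18, and Prf1, encoding perforin, never exceeded 4.21. Their part in the Cxcr3 difference was not tested either.

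Cells that can make the chemokines were followed in the same way, beside 0.600%, 18.4% and 14.9% of all probe sets called at days 4, 14 and 25. Of 12 macrophage and monocyte markers 1 rose at day 4, 8 at day 14 and 7 at day 25, and 1 fell at day 25, in allografts against isografts. Their summed level was 13.32 to 13.78 in day 4 allografts and 13.02 to 13.51 in day 4 isografts, and 13.59 to 14.70 and 12.08 to 13.45 at day 25. Of 7 dendritic cell markers 0, 4 and 4 rose at days 4, 14 and 25. Plasma and B cells are not among the sources named above, and 0, 1 and 3 of their 4 tested markers rose. None of 8 endothelial markers was called at any of the 3 days, and 1 was called higher at day 14 with each gene averaged over its probe sets. Airway epithelium markers, another possible source of the chemokines, were called lower for 0, 8 and 10 of 10, and their summed level in day 25 allografts was 6.76 to 7.11. The day 25 allografts, with the lowest epithelial levels of any group, held Cxcl9 at 10.98 to 11.96 and Cxcl10 at 8.73 to 10.25. The part of any of these cell types in the chemokine differences was not tested.

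**Figure D4:**
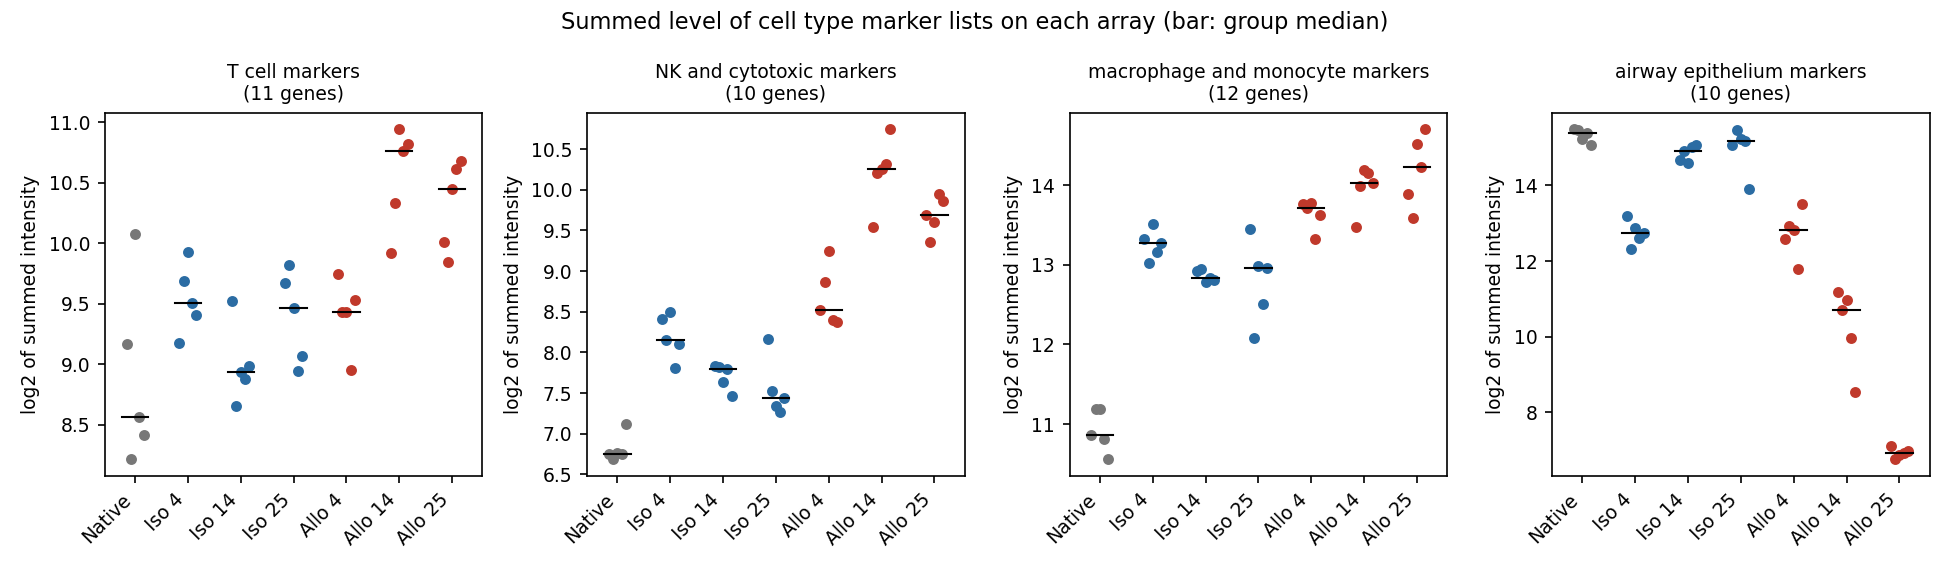
Summed level of 4 marker lists, as log2 of the summed intensity (vertical axes), on each of 35 arrays by group (horizontal axes), with bars at group medians. T cell and natural killer lists have their highest medians in day 14 and day 25 allografts, as Cxcr3 has, while airway epithelium markers drop to between 6.76 and 7.11 in day 25 allografts. The T cell sum can depend largely on Thy1.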

How the data were processed

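The values were log2 intensities deposited by the authors, made with GCRMA 1.1.3 per the submitters' processing notes, and no further logarithm, pseudocount or normalization was applied. Per the labels' protocols, biotin-labelled cRNA was made from total RNA of tracheal tissue. Of 22690 probe sets, 64 controls were set aside. Of the rest, 20380 named 1 gene, 691 several and 1555 none, by the platform annotation, and only probe sets with 1 gene were named. A single limma model (version 3.58.1, R 4.3.3, with lmFit and eBayes) held the 7 group means of all 35 arrays, and p-values were adjusted by the Benjamini-Hochberg method over 13678 probe sets within each comparison. The fit was tested on simulated data for allografts against isografts at day 4. Of 100 probe sets raised by 1 on the log2 scale it called 66%, and of 100 raised by 2 it called 95%, with 11 false calls. Changes of about 1 at day 4 could therefore be missed. The 5 arrays per group limit the precision.

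A gene with several probe sets is led by the one with the highest mean over all arrays. Genes outside the 4 members were named if they belonged to a short set of known pathway and marker genes, were among the 2 called genes per list with the largest day 14 difference, or were among the 5 genes most like a member. Pairs of members were compared by 100000 permutations within groups, two-sided. Promoter windows are from RefSeq. The members, lists and rules were chosen with earlier results of these data known. Alternatives covered the filter, array weights, the variance model, normalization, centring, a replicate block, the arrays in the fit and each array left out in turn.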

Additional observations from a re-analysis of the deposited data

Results flagged for a closer look

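In 35 groups of 5 values (5 probe sets in 7 groups), 2 held an array far from the other 4, where chance gives about 1 in 20. Cxcl10 in day 4 isografts was 7.10 in replicate 3, and the other arrays of the group lay between 6.33 and 6.53. Cxcl11 probe set 1419697_at in day 14 isografts was 4.28 in replicate 1, against 3.94 to 4.03 in the others. Of 10 tests of a change of the allograft-isograft difference between days, the change for Cxcr3 from day 4 to day 14 passed, at 1.52 on the log2 scale (adjusted p = 0.00637 in limma).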

How the results depend on the processing

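Of 1555 recomputed differences of the 5 member probe sets, 1534 stayed on their side of the threshold, 14 moved past it, 7 dropped below it and none of the called ones changed sign. No call between allografts and isografts for Cxcl9, Cxcl10 or Cxcr3 was lost or gained in any alternative that could give a value; a filter at log2 7 left out Cxcl11 and Cxcr3. Same-numbered arrays correlated at -0.422 to 0.467, above 0.1 in 8 of 15 pairs (4 of 5 at day 4) and best with their own number in 7 of 15. The labels do not say what the numbers mean, and the main fit did not pair the arrays by them. Whether same-numbered arrays share a batch or a pairing, at day 4 above all, was not tested. With replicate number as a block the 1419697_at difference between day 4 allografts and isografts was 1.68 (adjusted p = 0.0415), the one member call that changed, and no count of calls moved by over 1.5 times under the block. The same difference was 1.78 (adjusted p = 0.013) with array weights and 1.75 (adjusted p = 0.0398) after quantile normalization. With array weights, Cxcl10 in day 4 isografts was 0.894 above native trachea (adjusted p = 0.0266) and 1419698_at in day 4 allografts 0.567 (adjusted p = 0.026). With only the compared groups fitted, 1419697_at at day 14 was 1.46 (adjusted p = 0.0592), Cxcl10 in day 4 isografts 0.80 above native (adjusted p = 0.00481) and 1419698_at in day 14 isografts 0.697 above native (adjusted p = 0.0809). Without the 2 arrays that stood apart, 1419698_at was 0.681 above native in day 4 allografts (adjusted p = 0.0219) and 0.623 in day 25 allografts (adjusted p = 0.0411), and the deviations of Cxcl9 and Cxcl10 correlated at 0.70. With 1419697_at for Cxcl11, chosen after seeing the data, its deviations correlated at 0.439 with Cxcl9 and 0.64 with Cxcl10. Leaving out each array in turn, 1419697_at ranged from 1.30 to 1.98 at day 4 and from 0.985 to 1.81 at day 14 between allografts and isografts, and 1419698_at against native from 0.511 to 0.851 in day 14 isografts, 0.427 to 0.681 in day 4 allografts and 0.369 to 0.623 in day 25 allografts. Cxcl10 in day 25 isografts against native ranged from 0.706 to 1.21, and Cxcr3 from day 14 to day 25 in allografts from 0.453 to 0.999. Causes of these changes were not tested.

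Counts of called probe sets moved by over 1.5 times as follows. Without a filter they were 10007 against 6054 for day 4 isografts and 6154 against 3935 for day 14 isografts over native. With the filter at log2 7 they were 3875 and 2530 for those and 4033, 3952 and 3171 for allografts of days 4, 14 and 25 over native, against 6128, 6305 and 4920. Array weights gave 3549 against 2203 for day 25 isografts over native, 1433 against 873 for the change from day 4 to day 14 and 1843 against 1093 for that step in allografts. The compared groups alone gave 51 against 82 between allografts and isografts at day 4. Removing the 2 arrays that stood apart gave 11 against 0 for isografts from day 14 to day 25, where leaving out 1 array gave 0 to 8. Without native replicate 1 there were 1425 against 2203 for day 25 isografts over native, and without day 14 allograft replicate 3 there were 96 against 146 for the change from day 14 to day 25. With each gene averaged over its probe sets, interferon-gamma signalling had 1 gene called at day 4 in place of 0. With each gene averaged over its probe sets, 1 gene more was also called in Cxcr3 induction and signalling at day 25 (2), among homing genes lower at day 25 (2), in endothelium at day 14 (1) and in fibroblast, cartilage and smooth muscle at day 25 (2), and 1 fewer among scaling reference genes at day 14 (0). Centring on reference genes took the median of all probe sets from -0.03 to 0.17 for isografts from day 14 over day 4 and from -0.02 to -0.18 for day 4 isografts over native, and turned no member's called direction.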
